A study of Mus musculus with 2 samples.

Results

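The non-classical MHC class I genes described here are H2-Q1, H2-Q7, H2-Q10, H2-T23, H2-T24, H2-M2, H2-M3, Cd1d1 and Mr1. They form a given list of 9 genes, whose probes were found through the transcript accession each probe carries. This gave 14 probes on 23 spots for 8 of the 9 genes, out of 41174 probes and 17176 named genes on the array. No probe was matched to H2-M2, so H2-M2 is not analysed here. The study compared CD4+ helper with CD8+ cytotoxic T cells, both labelled as splenocytes of wild-type mice of the strain C57B6 and isolated by cell sorting. Total RNA of each cell type was labelled with Cy3 and hybridised to 1 one-colour Agilent array. The sources used here give no age, no number of mice and no sort markers. A single array stood for each cell type, so the values have no replicate and no test.

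Classical class I molecules show peptides from inside the cell to CD8+ T cells and are found on nearly every nucleated cell. The non-classical molecules share their fold, and most of them pair with the same light chain, beta-2 microglobulin, but they vary little between individuals and present narrower sets of ligands. H2-T23 (Qa-1) presents leader peptides of other class I chains to the CD94 family of receptors, and H2-M3 presents formylated peptides of bacteria. Cd1d1 encodes CD1d, which presents lipids to natural killer T cells, and Mr1 encodes the molecule that presents vitamin B metabolites to mucosal-associated invariant T cells. H2-Q7 belongs to the Qa-2 antigens, and H2-Q10 is known as a secreted class I molecule of the liver. The H2-Q, H2-T and H2-M genes lie in clusters along chromosome 17 next to the classical genes, whereas Cd1d1 and Mr1 lie on chromosomes 3 and 1.

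Class I genes are controlled by a compact stretch just upstream of the gene start, which holds a kappa B element (enhancer A), an interferon response element and an X2 and CCAAT module. RefSeq windows of GRCm38.p6 were at hand for 6 of the 9 genes, and those of H2-Q7, H2-Q10 and H2-M3 are shown with that of the classical gene H2-D1, because they show how far 3 of the detected genes share this stretch. Each is the 250 bases before the gene start, on the plus strand, at chr17:35438905-35439154 for H2-Q7, chr17:35469839-35470088 for H2-Q10, chr17:37269984-37270233 for H2-M3 and chr17:35262844-35263093 for H2-D1. Capitals mark matches on either strand to a kappa B core of 10 bases (the first run of capitals in H2-Q7), TTTCNNTTC (interferon response), TGACG (X2) and CCAAT. None of these matches overlap.
H2-Q7: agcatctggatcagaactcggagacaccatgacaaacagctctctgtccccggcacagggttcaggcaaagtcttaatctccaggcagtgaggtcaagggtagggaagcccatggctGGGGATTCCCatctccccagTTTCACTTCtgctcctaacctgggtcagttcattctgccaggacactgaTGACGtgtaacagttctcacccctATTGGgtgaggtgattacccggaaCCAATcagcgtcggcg
H2-Q10: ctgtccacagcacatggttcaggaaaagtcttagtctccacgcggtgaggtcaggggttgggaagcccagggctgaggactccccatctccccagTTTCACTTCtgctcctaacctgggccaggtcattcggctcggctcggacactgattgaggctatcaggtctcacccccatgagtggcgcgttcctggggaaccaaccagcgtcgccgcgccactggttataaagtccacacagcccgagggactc
H2-M3: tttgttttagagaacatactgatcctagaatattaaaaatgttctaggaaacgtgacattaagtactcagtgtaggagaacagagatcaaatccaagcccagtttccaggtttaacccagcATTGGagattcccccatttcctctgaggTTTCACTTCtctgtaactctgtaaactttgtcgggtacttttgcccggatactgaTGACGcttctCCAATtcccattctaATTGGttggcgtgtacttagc
H2-D1: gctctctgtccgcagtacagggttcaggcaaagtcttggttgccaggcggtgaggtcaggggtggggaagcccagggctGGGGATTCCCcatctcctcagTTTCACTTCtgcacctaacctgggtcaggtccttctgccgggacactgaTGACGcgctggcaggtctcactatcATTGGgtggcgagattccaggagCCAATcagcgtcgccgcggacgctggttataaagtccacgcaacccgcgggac
H2-Q7 held all 4 motifs, as did H2-D1 and the classical gene H2-K1. H2-M3 held 3 of the 4 and lacked the exact letters of the kappa B core. H2-Q10 held the interferon response letters alone. In the windows not shown, that of H2-M2 held 3 motifs, that of H2-T23 held CCAAT alone and that of Mr1 held none. Over all 32851 windows of this length, 0.0852% held the kappa B core, 6.31% the interferon response letters, 17.8% TGACG and 33.8% CCAAT, so the last 2 are common. A global alignment gave 80.4% identity between the H2-Q10 and H2-D1 windows and 59.3% between H2-Q10 and H2-Q7. Between H2-Q10 and B2m it was 49.0%. The interferon response letters lie at -155 in H2-Q10, -150 in H2-D1 and -113 in H2-Q7, so the H2-Q7 window covers a shifted stretch. Its lower identity to H2-Q10 therefore does not show that the shared stretch differs more. These matches describe letters only. H2-Q1, H2-T24 and Cd1d1 had no window.

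All values below are from 2 arrays of the same design. The 75th percentile of processed signal was 508 for CD4+ and 449.9 for CD8+, and 63.1% and 58.6% of the spots were well above background. Levels are log2 of the processed signal relative to that percentile, and differences are CD8+ minus CD4+, positive where CD8+ is the higher. The genes that name the cells went with the labels, since Cd8a was 105.6-fold higher in CD8+ and Cd4 4.12-fold higher in CD4+. Each was also well above background on the other array, Cd8a at 534.7 in CD4+ and Cd4 at 67.1 in CD8+. The purity of the sorted cells was not tested. Among 11889 genes measured on both arrays the median difference was 0.02, with quartiles of -0.19 and 0.20. Repeated spots of 154 probes gave a technical standard deviation (SD) of the difference of 0.16, and the several probes of 3931 genes one of 0.23. The latter SD was 0.43 in the dimmest 25% of probes, 0.22 and 0.15 in the groups between and 0.13 in the brightest 25%. Neither includes the spread between mice. In sorted bulk cells, fewer expressing cells and less RNA per cell cannot be told apart.

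All 14 probes of the 8 genes were well above background on both arrays, so each gene's probes gave a signal in both cell types. Of these, 3 probes were saturated on both arrays, among them the only probes of H2-Q7 and H2-T23, which leaves no measured difference for these 2 genes. For the remaining 6 genes, the difference was read from the brightest probe that was not saturated on both arrays. H2-Q1 alone was 2-fold or more higher in CD4+ cells, 1 of 6 genes beside 3.85% of all measured genes. By this probe no member was 2-fold or more higher in CD8+ cells, where 1.95% of all genes were, and 5.80% of all genes differed 2-fold in either direction. H2-Q1 was also past 4-fold, as were 0.934% of all genes in its direction, 0.421% in the other and 1.35% in either. These shares are over genes well above background on both arrays. They leave out 920 genes above background on the CD4+ array alone and 181 on the CD8+ array alone. Of the 11 probes that could be compared, 9 lay within 2-fold, 1 (H2-Q1) was higher in CD4+ and 1 (of H2-Q10) in CD8+. Among all named probes 3.31% were that much higher in CD4+ and 1.79% in CD8+, 5.09% in all. The other 5 genes had differences between -0.42 and 0.34, a range that held 73.5% of all genes. The 6 genes had a median of -0.01, with 3 higher in each cell type, where 53.4% of all genes were higher in CD8+ and 46.6% in CD4+. Mr1, 1 of the 3 in CD8+, was higher only after the scaling between the arrays.

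**Figure D1:**
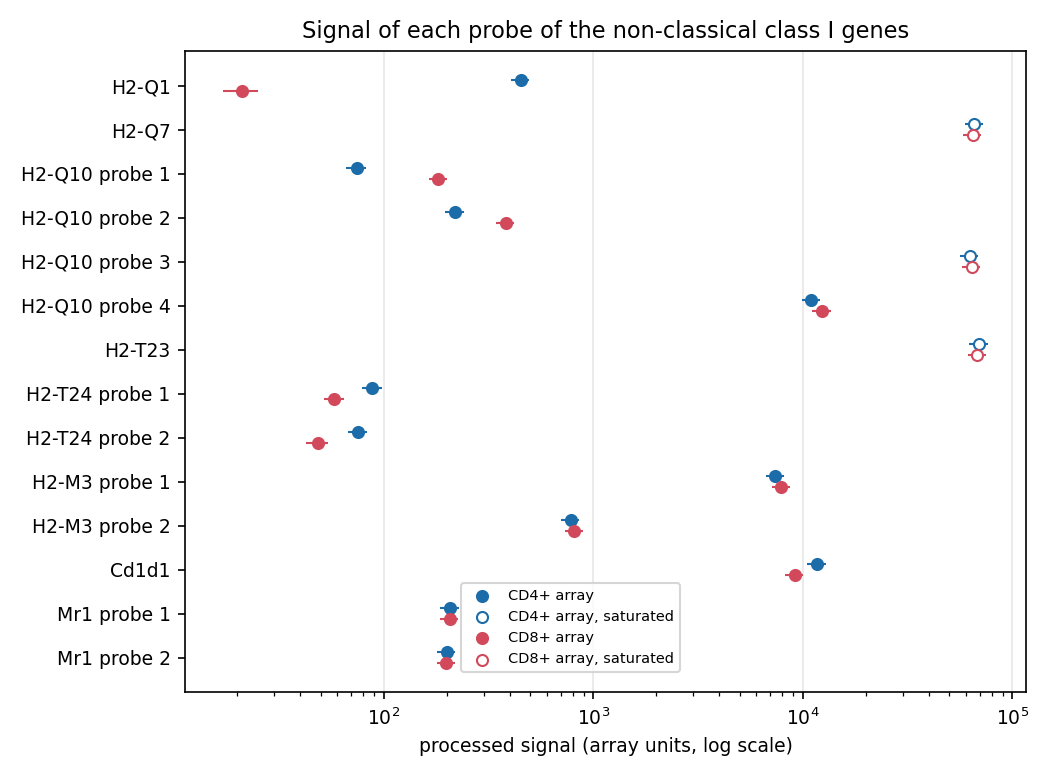
Processed signal of each of the 14 probes (horizontal log axis, array units) on the CD4+ array in blue and the CD8+ array in red, with bars for the scanner software's error estimate and open circles for probes with saturated spots. H2-Q1 is at 450.5 in CD4+ and 21.1 in CD8+, whereas H2-Q7, H2-T23 and 1 probe of H2-Q10 sit at the ceiling on both.

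H2-Q1, a class I gene of the Q region, had the largest difference of the group. Its single spot (probe A_52_P231729) gave a processed signal of 450.5 with a software error estimate of 45.2 on the CD4+ array and of 21.1 with an error of 3.94 on the CD8+ array. The CD4+ value lay a little under that array's 75th percentile and the CD8+ value near the detection limit, and they were much further apart than their errors. Before background subtraction the spot's median brightness was 9.99 times its local background on the CD4+ array and 1.39 times on the CD8+ array. On the CD8+ array, 6.23% of the spots well above background had a processed signal at or below that of H2-Q1. The difference was -4.24 with a software error of 0.31, or 18.9-fold higher in CD4+ cells. Of the 11889 genes measured on both arrays, 5 had a difference this low or lower, H2-Q1 included. That count leaves out genes above background on 1 array, 920 on CD4+ and 181 on CD8+, which have only a bound. Among them, Foxp3 was at least 21.3-fold higher in CD4+. The size of the H2-Q1 difference depended on how the background was treated. It was 4.44-fold with normexp background correction and 6.18-fold with the authors' series values, which are not background-subtracted, and H2-Q1 stayed beyond 2-fold in the CD4+ direction in both.

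The class I genes on either side of H2-Q1 gave values within 2-fold, of which that of H2-D1 is not settled. In the order of the RefSeq annotation, H2-Q1 lies between the classical gene H2-D1 and H2-Q2. H2-Q2 gave 26801 in CD4+ and 28933 in CD8+ cells, a difference of 0.29, and its other probe was saturated. H2-D1 gave 68006 and 66030, a difference of 0.13 whose spot was saturated on the CD8+ array and its second probe on both. H2-K1, on the far side of H2-D1, had a difference of 0.29 by its brighter unsaturated probe and of 0.55 by the other. In the plot of genes along the chromosome, the 9 other plotted class I values, H2-D1 included, lie between -0.42 and 0.55.

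**Figure D2:**
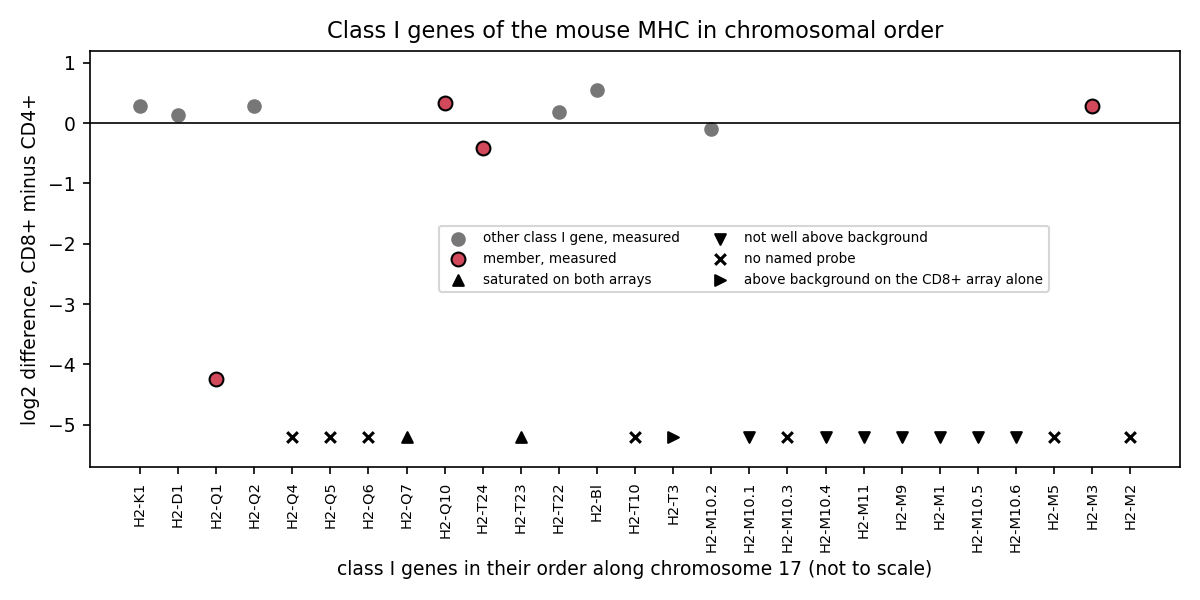
Log2 difference (vertical axis, CD8+ minus CD4+) of the class I genes of chromosome 17 in their annotated order, with members in red, other class I genes in grey, and genes without a measured difference marked by symbols along the bottom. H2-Q1 lies at -4.24, while its neighbours H2-D1 and H2-Q2 are drawn at 0.13 (saturated on the CD8+ array) and 0.29.

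The 2 arrays also differed in markers of other cells and of regulatory T cells, in both directions. Of the regulatory T cell markers, Ctla4 and Ikzf2 were measured on both arrays and were more than 2-fold higher in CD4+, and Foxp3 and Il2ra were well above background in CD4+ alone. Their median over the measured pair was -3.26. The summed level of this pair, without Foxp3 and Il2ra, was 3.11 in CD4+ and 0.446 in CD8+, in units of each array's 75th percentile. Of 6 measured dendritic cell markers, 3 were that much higher in CD4+, with summed levels of 7.75 and 3.54. Of 4 measured NK cell markers, 3 were too, with summed levels of 2.56 and 0.442, and Klre1 was not detected in either cell type. Of 6 measured monocyte and macrophage markers 1 was, with summed levels of 70.58 and 59.96, and of 4 measured plasma cell markers 1 was, with 5.15 and 3.14. The remaining plasma cell marker, Tnfrsf17, was well above background in CD4+ alone, by at least 3.83-fold. All 10 B cell markers were higher in CD8+, none of them 2-fold, with summed levels of 19.9 in CD4+ and 30.7 in CD8+. Neutrophil, platelet and erythroid markers had medians of -0.03, 0.60 and -0.14 over the genes measured on both arrays, none of those 2-fold apart, and T cell markers one of 0.17. The platelet marker Itga2b was well above background in CD8+ alone, by at least 2.32-fold. The part of these cells in the H2-Q1 difference was not tested.

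H2-Q10, the gene of the secreted class I molecule, was read by 4 probes that did not give 1 value. Probe A_51_P230267 gave 74.4 in CD4+ and 182.4 in CD8+ cells, with software errors of 8.23 and 18.6, a difference of 1.47 or 2.77-fold. Probe A_51_P230269 gave 218.8 and 381.9, a difference of 0.98 or 1.97-fold. Probe A_52_P428354, much brighter, gave 11015 and 12357, a difference of 0.34 or 1.27-fold. This exceeds its software error of 0.20 and the SD of 0.13 between probes at that level. Before the scaling between the arrays the difference was 0.17, which is below that error. The fourth, A_51_P496997, was saturated on both arrays at 62698 and 64120.

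All 3 unsaturated probes of H2-Q10 were thus higher in CD8+, but by amounts that differed by 1.13 on the log2 scale. Among the 711 genes with 3 measured probes, 1.27% had a range this wide or wider. The H2-Q10 probes had a mean of 0.93 with an SD of 0.57 over probes, against the 0.34 of the brightest unsaturated probe, and the 2 dim probes lie at a level where the SD between probes of a gene was 0.22. With normexp the differences of the 3 probes were 1.0, 0.80 and 0.40. All 4 probes carry the same transcript accession. The H2-Q, H2-T and classical genes include near-identical relatives, and the probe sequences were not used here. Which of these transcripts each H2 probe bound, that of H2-Q1 included, was therefore not tested.

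**Figure D3:**
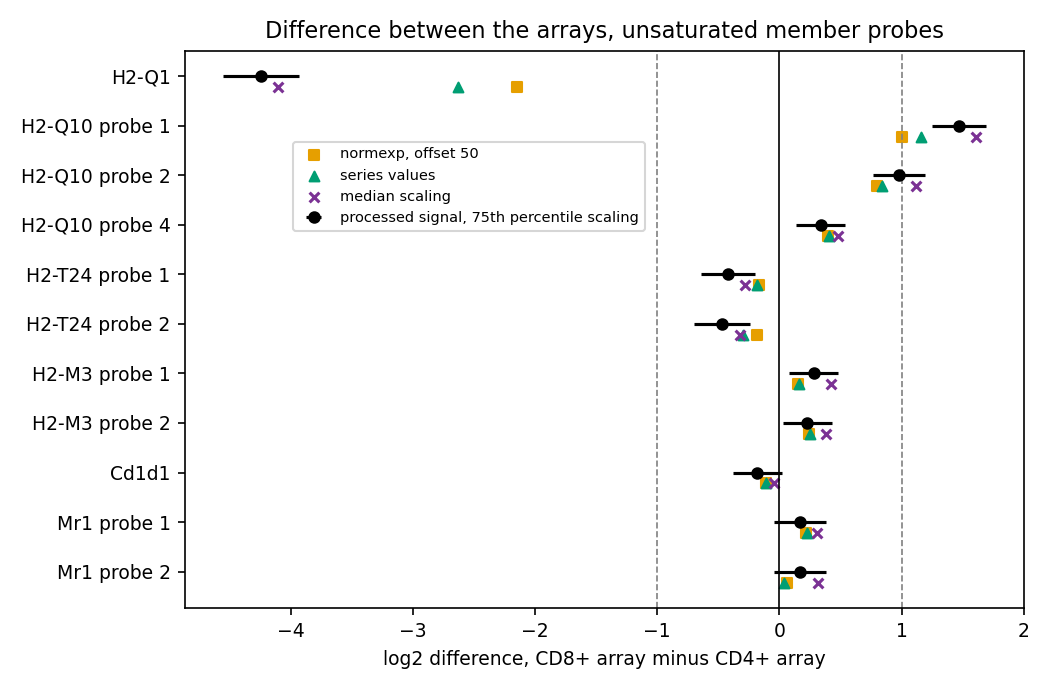
Log2 difference (horizontal axis, CD8+ minus CD4+) of the 11 member probes not saturated on both arrays, as black points with bars for the software's error, and under normexp, the authors' series values and median scaling as coloured symbols; dashed lines mark 2-fold. H2-Q1 is at -4.24 and the H2-Q10 probes at 1.47, 0.98 and 0.34, and the remaining probes lie within the dashed lines.

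H2-Q7, of the Qa-2 antigens, was at the ceiling of the scanner. Its probe was printed on 10 spots, which gave processed signals from 60703 to 73105 in CD4+ (mean 65850 ± 4574, SD over 10 spots) and from 60067 to 68729 in CD8+ (mean 64737 ± 2795). Of these spots, 9 were saturated in CD4+ and 10 in CD8+, and their median brightness was the maximum of 65527 on both, with 1 CD8+ spot marked as an outlier. The spots of the 2 arrays overlap, but at the ceiling this does not show equal levels. H2-T23, the Qa-1 gene, had a single spot, saturated at 69315 in CD4+ and 68037 in CD8+. Both genes therefore gave strong signals in both cell types, and the size and direction of any difference were not measurable.

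H2-T24, a gene of the T region, was dim on both arrays. Its probes gave 88.2 and 75.5 in CD4+ and 58.2 and 48.4 in CD8+. Both were lower in CD8+, with differences of -0.42 and -0.47 and software errors of 0.22 and 0.23. The SD between probes of a gene was 0.43 among probes this dim, about the size of both differences. With normexp they shrank to -0.17 and -0.18.

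H2-M3, the presenter of formylated peptides, was bright by one probe and moderate by the other. Probe A_51_P469968 gave 7385 in CD4+ and 7909 in CD8+, a difference of 0.28, and probe A_52_P490263 gave 781.3 and 812.7, a difference of 0.23. Both were slightly higher in CD8+, with a software error of 0.20 each. Before the scaling between the arrays the differences were 0.10 and 0.06, which are below that error. Of all measured genes, 81.9% had a difference below that of H2-M3.

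Cd1d1, the lipid-presenting molecule, gave 11711 with an error of 1171 in CD4+ and 9144 with an error of 914 in CD8+. It was detected strongly in both cell types, and the difference of -0.18 was smaller than its software error of 0.20. It remained negative under each alternative tried, closest to 0 at -0.04 with median scaling. Mr1 gave 207.4 and 206.2 by one probe and 199.6 and 199.4 by the other, in CD4+ and CD8+ respectively. Each Mr1 probe thus read nearly the same signal on both arrays, and the difference of 0.17 by each is that of the scaling, since before it the probes gave -0.01 and 0.00.

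**Figure D4:**
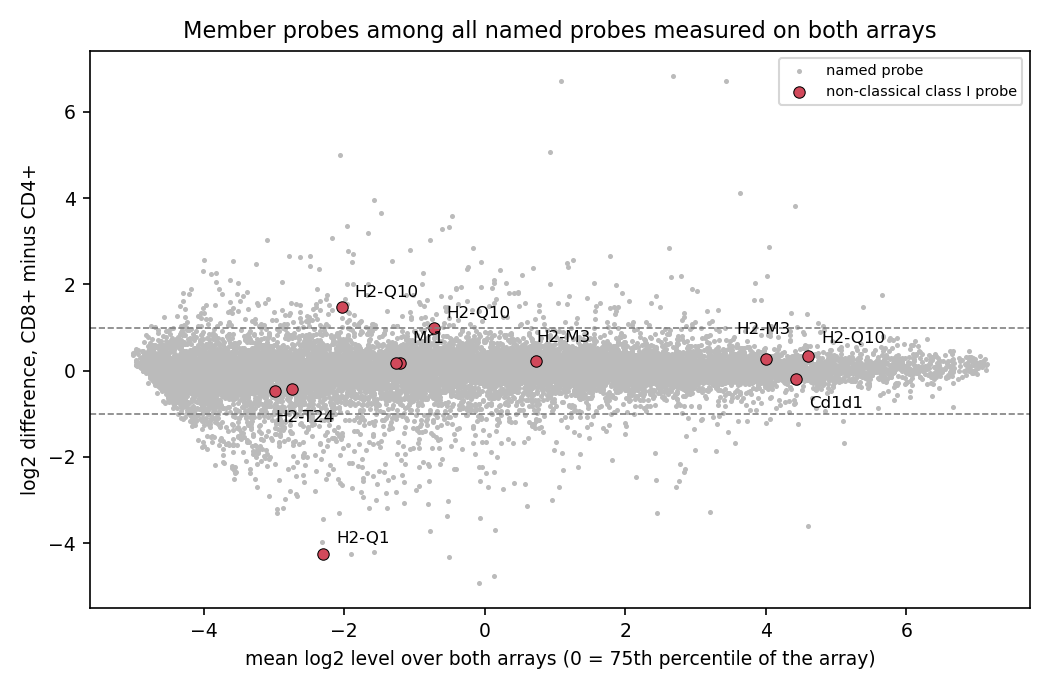
Log2 difference (vertical axis, CD8+ minus CD4+) against mean log2 level over both arrays (horizontal axis, 0 is the array's 75th percentile) for 16851 named probes in grey and the 11 member probes in red; dashed lines mark 2-fold. H2-Q1 lies at the lower edge of the cloud and 1 H2-Q10 probe above the upper line, and the others lie inside.

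Genes that work with the class I molecules are described from lists of related genes. The classical heavy chain H2-K1 and beta-2 microglobulin (B2m) were slightly higher in CD8+, by 0.29 and 0.25, beside a median of 0.02 over all genes. Each had a software error of 0.20, and the scaling between the arrays added 0.18 to each difference. The heavy chain H2-D1, saturated as described, has no settled direction. With it the list's median was 0.25, or 0.13 with quantile normalization, and with saturated probes left out it was 0.27. B2m, the light chain that most members need, gave 46913 and 49524 by its brighter probe, a difference of 0.25, and 7933 and 8477 by a probe with 10 spots, a difference of 0.36.

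Genes of class I peptide loading, which also serve H2-T23, had a median of 0.31, or 0.22 with quantile normalization. The scaling between the arrays added 0.18 to each difference here too. Of 12 measured genes, 1 was more than 2-fold higher in CD8+ and 0 in CD4+, beside 1.95% and 3.85% of all genes. Tapbpl, a peptide editor related to tapasin, gave 3147 in CD4+ and 6027 in CD8+ (2.16-fold), the peptide transporter subunit Tap2 had a difference of 0.86 and the trimming peptidase Erap1 of 0.56. Regulators of class I transcription had a median of 0.05 over 11 genes, none 2-fold apart. The largest differences among them were 0.39 for the CCAAT-binding subunit Nfyc, 0.37 for the NF-kappa B subunit Rela and 0.31 for Rfxap, a subunit of the complex that binds the X box. Their other probes varied, with 0.60 for Rela and -0.06 for Rfxap.

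Of 36 further non-classical and class I-like genes, 9 were measured on both arrays, 1 was above background on the CD8+ array alone, 10 were not well above background and 16 had no named probe. The 9 had a median of 0.18 and none was 2-fold apart. Fcgrt, the neonatal Fc receptor, came closest at 1.99-fold higher in CD8+ (847 in CD4+ and 1492 in CD8+), followed by H2-Bl with 0.55 and H2-Q2 with 0.29. The H2-Bl value is of its brightest probe, at 1899 in CD4+ and 2462 in CD8+. Its other probes gave 7.98 and 14.9, well above background in CD8+ alone, and 4.99 and 9.06, in neither. H2-T3, the thymus leukaemia antigen, was at 10.14 in CD4+, not well above background, and at 25.4 in CD8+, at least 2.21-fold higher. Of the 10 H2-M genes in this list, 7 were below detection in both cell types and 1, H2-M10.2, was measured, whereas both probes of H2-M3 were detected in both.

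Among genes of lipid handling on the CD1d route, 11 were measured with a median of 0.03, which turned to -0.01 with normexp, quantile normalization, the series values and the percentile over detected probes. None was 2-fold apart. The lysosomal protease Ctsl, with -0.63, differed most, and the adaptor subunit Ap3d1 and Psap, the precursor of lipid-loading saposins, each had 0.39. Of 9 measured class II genes none was 2-fold apart and the median was -0.16. H2-Oa had 0.84, the class II transactivator Ciita -0.44 and H2-DMb2 -0.42. Class II genes are expressed by B, dendritic and other antigen-presenting cells, which also express Cd1d1, and the part of such cells in the Cd1d1 value was not tested.

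Receptors that recognise these molecules, or that mark the unconventional T cells they select, had a median of 0.54 over 9 measured genes. It was 1.1 with dim probes dropped, but over fewer genes, so the 2 medians are not of the same set. Of the 9, 3 were more than 2-fold higher in CD8+ and 1 in CD4+, beside 1.95% and 3.85% of all measured genes. The 3 and the median include Cd8a, whose direction follows from the cell labels. After Cd8a, which named the cells, Klrd1, the CD94 chain of the receptors for H2-T23, gave 3113 in CD4+ and 20111 in CD8+, 7.30-fold higher. That value is of 1 chain only. The receptor genes Klrc1 and Klrc3 of the same list were dim on both arrays and less than 2-fold higher in CD8+. Klrc1 gave 70.2 in CD4+ and 86.3 in CD8+, and Klrc3 gave 65.2 and 102.7 by its brightest probe. Klrb1c (NK1.1), found on NK and natural killer T cells, gave 422 and 73.7, 5.07-fold higher in CD4+. H2-T23, the ligand partner of Klrd1, was saturated, so no difference of its own can be set beside this one.

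**Figure D5:**
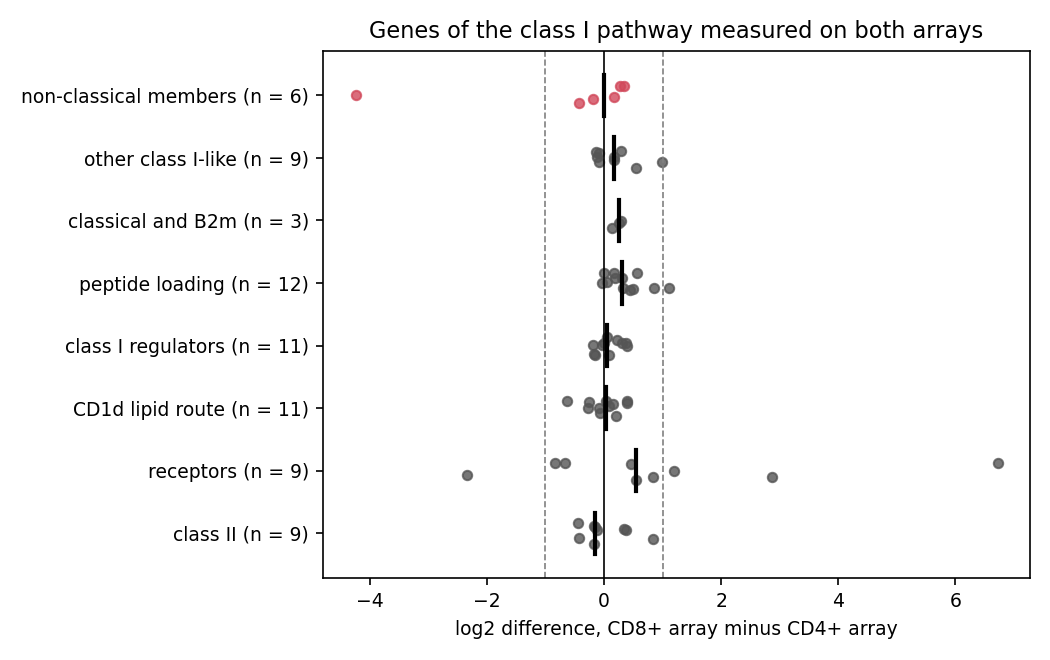
Log2 difference (horizontal axis, CD8+ minus CD4+) of each gene measured on both arrays in the non-classical group (red) and in 7 lists of related genes (grey); black bars are medians and dashed lines mark 2-fold. The medians run from -0.16 for class II to 0.54 for the receptors, and H2-Q1 is the only red point outside the dashed lines.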

How the data were processed

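Total RNA of 1 CD4+ and 1 CD8+ preparation was hybridised to 1 array each, per the labels. The deposited scanner files give spot intensity in linear units. Feature Extraction 10.1.1.1 made them per the file headers (the version is 9.1 per the submitters' processing notes). It subtracted background and detrended each array's processed intensity before deposit, and arrays were not scaled to each other. The authors' series intensity equalled the spot's median brightness at 45018 of 45018 spots on each array, so it is linear, not background-subtracted and not centred.

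The processed signal was taken as log2 relative to the 75th percentile of 43379 non-control spots per array, outlier spots were left out and spots of a probe averaged. Probes were named by transcript accession through a RefSeq table (assembly GRCm38.p6, used for names and gene order), which matched 60.3% of the probes. A gene took its brightest probe well above background and not saturated on both arrays. For a gene above background on 1 array, a fold is a lower bound, taken against the dim signal or that array's lowest detected level, whichever was higher. Error estimates are the software's, carried to the log2 scale. Summed marker levels add the scaled linear levels of the genes measured on both arrays. Motifs were searched in RefSeq windows (250 bases upstream), and windows aligned with scores of 1 for a match, -1 for a mismatch, -2 to open and -0.5 to extend a gap. The members and lists were chosen with earlier results of these data known. All members, all classical genes and the 3 largest differences and the largest bound per list were named, except 1 gene that is not reported here. Klre1, H2-M10.2, Klrc1, Klrc3 and the markers were named after their values were seen. No p-value was computed, since each group has 1 array, and this number limits the precision. The computation was tested on simulated data. Alternatives were normexp (limma, offset 50, median signals), median or detected-probe scaling, quantile and loess (span 0.3) normalization, the series values, other probe rules and a 4-fold threshold. Python 3.11.15, numpy 2.4.6, pandas 2.3.3, Biopython 1.88, R 4.3.3 and limma 3.58.1 were used.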

Additional observations from a re-analysis of the deposited data

How the results depend on the processing

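Over the 6 measured members, none changed direction under any alternative run. Each alternative scaled the arrays to each other, and without scaling each Mr1 probe read nearly the same signal on both. The counts of 1 member past 2-fold in the CD4+ direction and 0 in the CD8+ direction were kept under each alternative, a 4-fold threshold included. H2-Q1 moved from -4.24 to -2.15 with normexp and to -2.63 with the series values. H2-T24 moved from -0.42 to -0.17 with normexp and was left without a value when dim probes were dropped. H2-Q10 moved from 0.34 to 0.93 with the mean over its probes, and was 0.21 when probes saturated on both arrays were kept, an alternative added after seeing the data. The count of probes past 2-fold was less stable. H2-Q10 probe A_51_P230269, at 1.97-fold, was 2.18-fold higher in CD8+ with median scaling and 2.01-fold with quantile normalization. Over all genes the share at least 2-fold apart was 5.80%, and it was 2.88% with normexp, 3.44% with the series values and 11.1% with no filter on dim probes. Median scaling moved the median of all genes from 0.02 to 0.16, so differences of H2-M3, Cd1d1 and Mr1, and those of H2-K1 and B2m, are of the size of the scaling choice. Naming probes by a gene name column was not run, since the scanner files used here hold none. No paired analysis was possible because each group has 1 array. Saturation, not dimness, limits H2-Q7 and H2-T23.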
